A study of Mus musculus with 12 samples.

Results

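Mitochondrial ribosomal protein genes are described here in haematopoietic stem cells of mice treated with a CXCR4 antagonist, with G-CSF or with sham surgery. The genes were chosen by name: every probe on the array, controls left out, whose gene symbol was Mrpl or Mrps, a number and at most 1 further letter. This gave 77 genes, 48 of the large subunit and 29 of the small subunit, out of 37008 genes on the array. They carried 119 of its 56605 probes, and no measured value entered the choice. All 77 genes and all 119 probes passed the filter on dim probes, as did 33191 of all 37008 genes. Genes that blood cells do not use, described below, were among those that passed. The filter kept probes that 3 or more of the 12 arrays marked as well above background. The probe representing the gene met that mark on all 12 arrays for 68 of the 77 genes; the others were Mrpl15, Mrpl45, Mrpl57, Mrps17, Mrps24 and Mrps27 with 11 arrays, Mrpl50 with 9, and Mrpl19 and Mrpl35 with 5 each.

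The cells were LSK SLAM stem cells, sorted by flow cytometry from the Kit-enriched fraction of bone marrow of male mice. There were 4 groups of 3 mice, each mouse with 1 array: POL5551, a CXCR4 antagonist, given by continuous infusion at 100 mg/kg per day for 2 weeks; G-CSF at 100 ug/kg per injection every 12 h for 5 days, 9 doses in all; the same G-CSF schedule for 2 days, 4 doses; and sham operation. An operation is not mentioned for G-CSF mice in the labels, nor an injection for sham mice, and strain and age are not given. The labels do not say whether the mice of a group were treated or sorted together, so the p-values measure the spread between these mice, part of which may be technical. Levels are log2 signal relative to the 75th percentile of the same array, a difference is the mean of the first group minus that of the second, and a gene is called at a limma adjusted p under 0.05 over all 33191 genes tested.

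The mitochondrial ribosome translates the few messages of the mitochondrial genome, all of which encode subunits of the respiratory chain or of ATP synthase. Its RNAs come from that genome, while every one of its proteins is encoded in the nucleus, made in the cytosol and imported. The large subunit (Mrpl) holds the catalytic centre and the exit tunnel, the small subunit (Mrps) the decoding site, and both hold proteins that bacteria lack. Blood stem cells at rest are known for low respiration and reliance on glycolysis. By structure, Mrps18a and Mrps30 sit in the large subunit despite their names, and later work placed Mrps36 in the 2-oxoglutarate dehydrogenase complex; here they stay with the small subunit by name.

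The arrays were not alike in ways that touch every result below. Processed signal at the 75th percentile was between 1638 and 5579, the share of probes well above background between 75.3% and 85.6%, and 0 spots were saturated. Probes of genes that blood cells do not use (olfactory, vomeronasal, taste and keratin-associated, called off-tissue from here on) had a median level of -5.17, -4.50 and -4.11 in POL5551 mice 1 to 3, -3.97, -3.87 and -3.25 in 5-day G-CSF mice, -2.40, -2.73 and -2.60 in 2-day G-CSF mice, and -1.61, -3.30 and -3.45 in sham mice 1 to 3. Sham 1 thus stood apart from the other shams. The arrays lay on 6 slides, and all 3 arrays of the 2-day group shared a slide that held nothing else, so slide and 2-day group cannot be told apart. Of 8 stem cell markers (Kit, Ly6a, Slamf1, Procr, Cd34, Mecom, Hlf, Tek) 6 were well above background on all arrays, Slamf1 and Tek on 11. Of markers that the sort should leave out, Cd48 and Flt3 were also well above background on all 12 arrays.

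The probes were 60-mers, and 15 of the 119 spanned more than 60 bases on the design's build, mm9, so that their target crosses at least 1 intron. The sequences of 4 of these are shown because results below turn on them: the gene with the smallest p, the member called lower in POL5551 than after 2 days of G-CSF, and a gene whose probes disagreed. They are given 5′ to 3′ as on the array.
Mrps33 (chr6:39752503-39755388, minus strand): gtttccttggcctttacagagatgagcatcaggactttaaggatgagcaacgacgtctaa
Mrps11 (chr7:85933622-85935544, plus strand): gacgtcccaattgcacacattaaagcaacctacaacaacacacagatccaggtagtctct
Mrps9, brighter probe (chr1:42956365-42960169, plus strand): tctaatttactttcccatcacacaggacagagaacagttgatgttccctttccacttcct
Mrps9, dimmer probe (chr1:42952979-42955309, plus strand): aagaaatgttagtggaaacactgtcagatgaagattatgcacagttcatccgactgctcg

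Across the 12 arrays the median level of the members was 1.08, 1.22 and 0.92 in the POL5551 mice, 0.64, 0.80 and 0.16 in 5-day G-CSF mice, -0.29, -0.00 and -0.09 in 2-day G-CSF mice, and -0.63, 0.50 and 0.60 in the shams. All POL5551 arrays lay above all others, and all 2-day arrays lay below those of the 5-day group and of shams 2 and 3. Sham 1 was the lowest array for 54 of the 77 genes, while POL5551 mouse 2 was the highest for 44 and POL5551 mouse 1 for 17. The group mean was highest in POL5551 for 68 genes, and lowest after 2 days of G-CSF for 45 and in sham for 28. The medians of large and small subunit genes were 1.08 ± 0.15 and 0.97 ± 0.27 in POL5551, 0.59 ± 0.32 and 0.46 ± 0.34 after 5 days, -0.09 ± 0.08 and -0.16 ± 0.30 after 2 days, and 0.09 ± 0.82 and 0.10 ± 0.60 in sham (SD of the array medians, n = 3 each). The arrays with the highest member median had low off-tissue medians, and sham 1, with the lowest member median, had the highest off-tissue median.

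**Figure D1:**
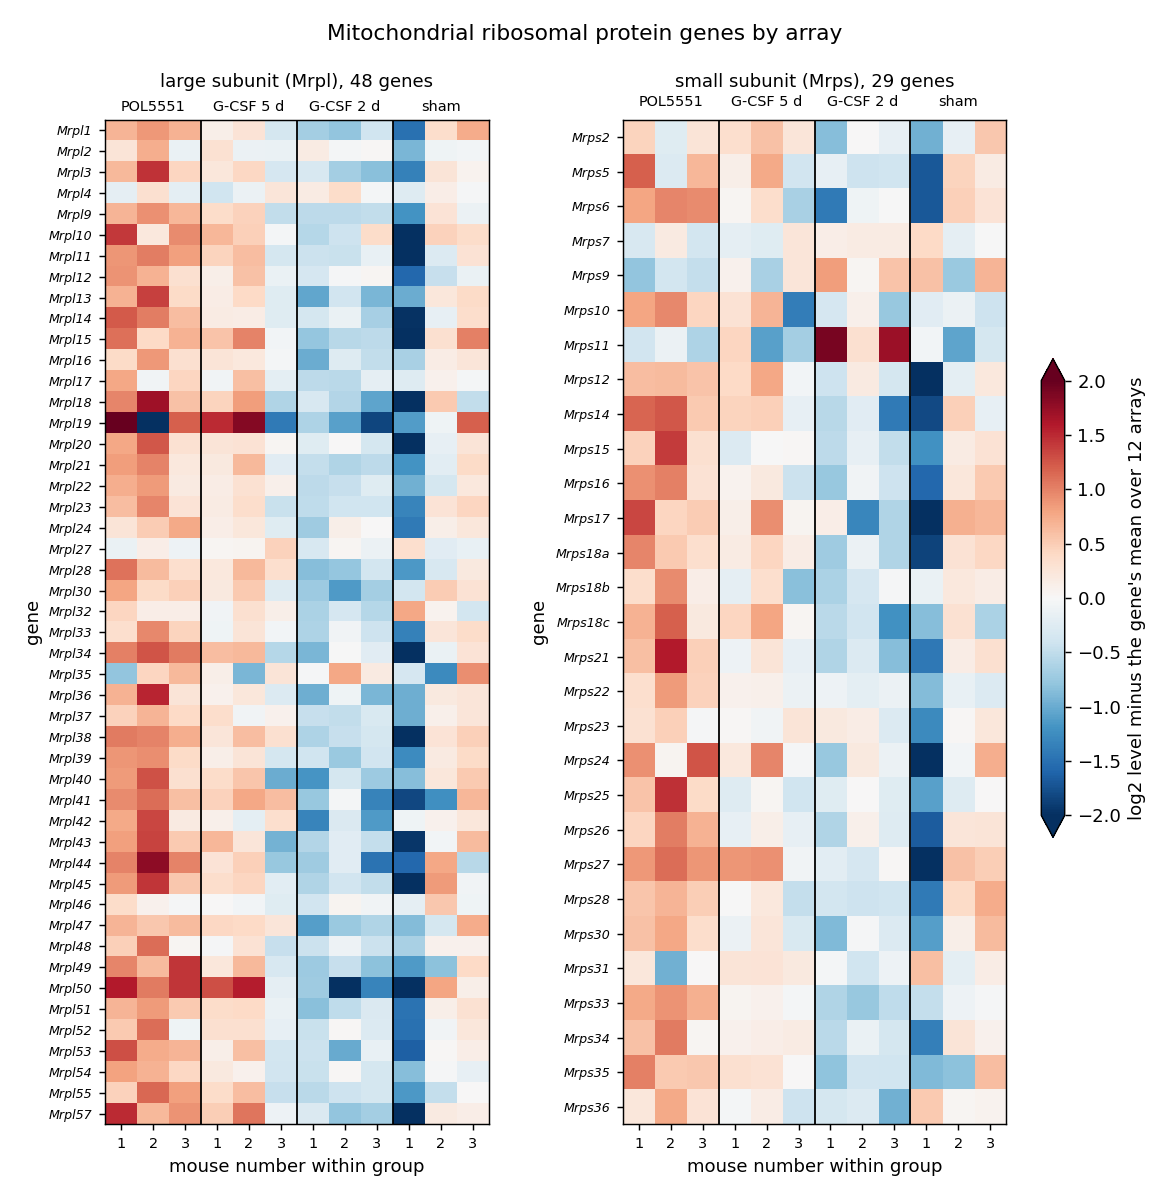
Heat map of the 77 genes (rows, large subunit left, small subunit right) on the 12 arrays (columns, 4 groups of 3 mice), coloured by log2 level minus the gene's mean over all arrays. Most rows are red in the POL5551 columns and blue after 2 days of G-CSF and in sham 1, which was the lowest array for 54 genes; Mrps11 is red after 2 days of G-CSF.

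**Figure D2:**
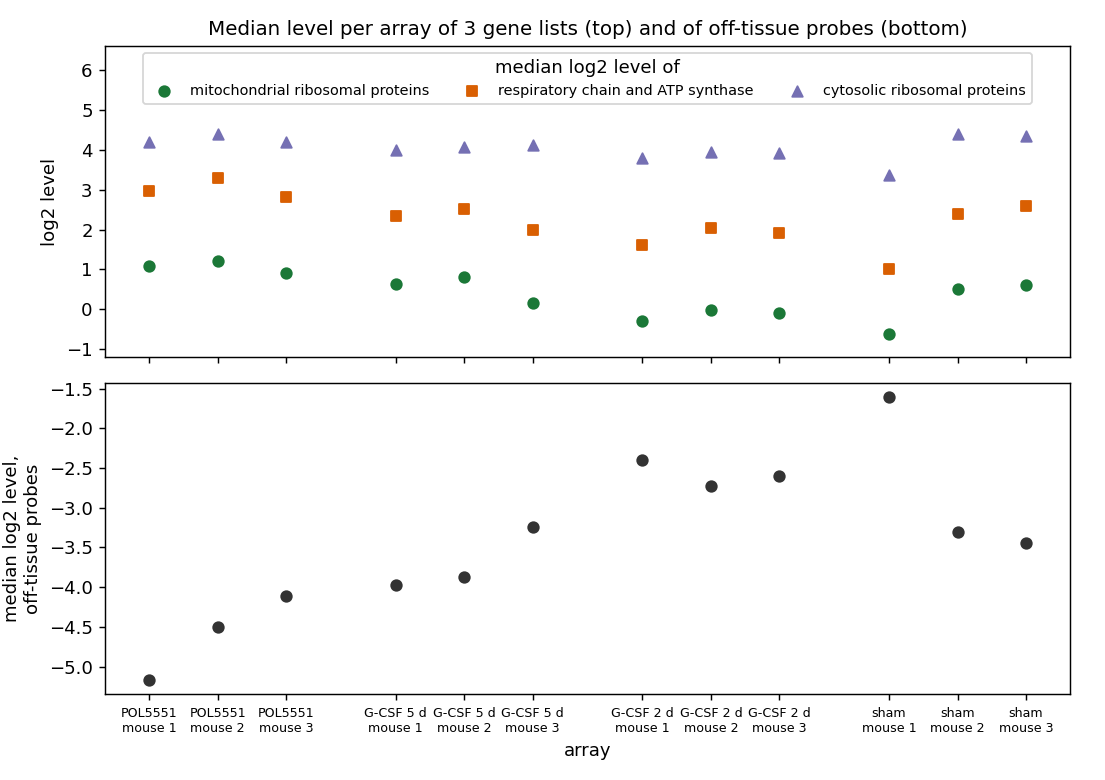
Median log2 level per array (points; 4 groups of 3 mice along the x axis) of the mitochondrial ribosomal, respiratory chain and cytosolic ribosomal lists (top) and of off-tissue probes (bottom). The member median was 0.92 to 1.22 in POL5551 and -0.29 to -0.00 after 2 days of G-CSF; levels are to be read within a list, not between lists.

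The first comparison asked what 2 weeks of CXCR4 blockade did to these genes. Of the 77, 73 had a positive difference between POL5551 and sham, with a median of 0.98, against a median of -0.52 over all genes tested, 35.9% of which were positive. In sorted cell pools such as these, fewer cells with a message and less message per cell cannot be told apart. The 3 comparisons with sham share the sham arrays. The median was 0.99 for the large and 0.98 for the small subunit. No member was called: the smallest adjusted p was 0.0628 (limma), while 0.178% of all genes were called higher and 2.11% lower. At an unadjusted p under 0.05, 36 members were higher and 0 lower, where the background was 8.33% and 26.7%. In 34 members every POL5551 array lay above every sham array, which 10.6% of all genes did.

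The gene with the smallest p was Mrps33, a small subunit protein that bacteria lack. Its level was 1.92, 2.07 and 1.88 in POL5551 mice, against 0.70, 1.07 and 1.15 in shams. The groups did not overlap, and the difference was 0.98 (SE 0.26, limma adjusted p = 0.0628). Mrpl49, of the large subunit, had -1.27, -1.62 and -0.82 in POL5551 and -3.38, -3.08 and -1.86 in sham, a difference of 1.54 (SE 0.43, adjusted p = 0.0663). Here too all POL5551 arrays were higher, although sham 3 lay far nearer to them than the other shams did. Mrpl12 forms the flexible stalk that recruits translation factors and is also known to bind the mitochondrial RNA polymerase. It had 1.55, 1.35 and 0.98 in POL5551 and -0.92, 0.20 and 0.52 in sham, a difference of 1.35 (SE 0.40, adjusted p = 0.0718). Next in order of p came Mrpl55, with a difference of 1.34, Mrps22, in which variants cause mitochondrial disease in people, with 0.98, and Mrps25 with 1.25, none of which overlapped between the groups.

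Size and stability went apart in this comparison. The 3 greatest differences belonged to Mrps27 (2.31), Mrpl34 (2.05) and Mrpl50 (2.01), genes with 1 very low sham value: Mrps27 had -0.05, 0.20 and -0.03 in POL5551 and -6.06, -0.32 and -0.42 in sham. For the stalk base protein Mrpl10 the values were 2.04, 0.83 and 1.57 in POL5551 and -3.24, 1.09 and 1.00 in sham. In both genes sham 1 made most of the difference, and the groups overlapped in Mrpl10. Over all members the SD between 3 mice had a median of 0.34 in POL5551 and 0.88 in sham, and sham 1 was the lowest sham for 68 of 77. Without sham 1 the median difference was 0.45, with 70 members positive and 0 called. Without sham 2 there were 2 calls, Mrpl18 and Mrpl44, both higher in POL5551, where 0.871% of all genes were called higher and 6.67% lower. Without sham 3 there were 15, Mrps33, Mrpl49, Mrpl55 and Mrpl12 among them, all higher in POL5551, where 2.42% of all genes were called higher and 11.6% lower.

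Within the slides that held both groups, the median difference between POL5551 and sham was 1.94 on slide 1, whose sham is sham 1 (1 mouse each; 69 of 77 positive), and 0.66 on slide 2, which held shams 2 and 3 (1 against 2 mice; 65 of 77 positive), beside medians over all genes of -1.15 and -0.18. When each array's off-tissue level entered the fit as a covariate, the member median was -0.22 and 24 members were positive. Summed levels of 10 stromal markers, 8 of them well above background on every array, were 15.0 to 49.6 in POL5551 and 4.53 to 9.59 in sham, on the linear scale where the 75th percentile is 1. Sums of 5 T and NK cell markers were 6.50 to 10.1 in POL5551 and 2.34 to 4.40 in sham, and those of 5 endothelial markers 2.15 to 2.72 in POL5551 and 1.44 to 1.89 in sham, also without overlap. Those of 9 neutrophil markers overlapped, at 5.27 to 11.5 in POL5551 and 3.30 to 7.85 in sham. Each of the 10 stromal markers was well above background on at least 7 arrays, Ebf3 on exactly 7. The part of these signals in the difference was not tested.

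POL5551 against 2 days of G-CSF gave the only calls among the members. Of 77 genes 25 passed at an adjusted p under 0.05 (limma): 24 rose in POL5551 relative to 2-day G-CSF, 18 of the large and 6 of the small subunit, and 1, Mrps11, fell. Over all genes 5.87% were called higher and 24.7% lower, and their median difference was -0.65 against 1.13 for the members, 71 of which were positive. In 61 members every POL5551 array lay above every 2-day array, against 21.8% of all genes. At an unadjusted p under 0.05, 42 members were higher and 2 lower, where the background was 12.2% and 36.7%. The median was 1.26 for the large and 0.97 for the small subunit.

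Mrps33 again had the smallest p. To its POL5551 values of 1.92, 2.07 and 1.88 stood 0.57, 0.41 and 0.66 after 2 days of G-CSF, 2.66-fold higher in POL5551 with a difference of 1.41 (SE 0.26, adjusted p = 0.0129). The spread within each group was at most 0.13 (SD, n = 3), small beside that difference. Mrpl42, a large subunit protein that bacteria lack (probe at chr10:94943468-94943527), had 0.51, 1.10 and -0.06 in POL5551 and -1.57, -0.54 and -1.38 after 2 days, a difference of 1.68 (SE 0.38, adjusted p = 0.0163). Mrpl30, the counterpart of a bacterial large subunit protein of the same number (chr1:37954938-37954997), had 0.76, 0.36 and 0.46 in POL5551 and -0.75, -1.15 and -0.71 after 2 days, a difference of 1.40 (SE 0.34, adjusted p = 0.0184). In all 3 genes the lowest POL5551 array was above the highest 2-day array.

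Mrpl50 (chr4:49527089-49527148) had the greatest difference of the called genes, 2.94 (SE 0.87, adjusted p = 0.031). Its values were -1.43, -1.98 and -1.58 in POL5551 and -3.72, -5.73 and -4.34 after 2 days, where 1 of 3 arrays was well above background, so the size of the difference is loose. The other called genes of the large subunit were Mrpl49, Mrpl13, Mrpl47, Mrpl28, Mrpl44, Mrpl36, Mrpl16, Mrpl55, Mrpl3, Mrpl9, Mrpl40, Mrpl39, Mrpl53, Mrpl22 and Mrpl21, with differences between 1.00 (Mrpl22) and 2.06 (Mrpl44). Mrpl3 lies near the catalytic centre, and variants of it and of Mrpl44 cause cardiomyopathy in people. Those of the small subunit were Mrps18c, Mrps14, Mrps21, Mrps35 and Mrps36, between 0.94 (Mrps36) and 1.71 (Mrps14). All calls rest on the representing probe of each gene. Probes of Mrpl9 (-1.99 to 1.10), Mrpl13, Mrpl47 and Mrps14 lay on both sides of 0 between POL5551 and sham. With the mean over its probes, Mrpl9 was lower in POL5551 than after 2 days of G-CSF.

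The count of calls rested on few mice. It was 0 without POL5551 mouse 1, where 0.0331% of all genes were called higher and 0.597% lower. It was 5 without mouse 2 (all genes 2.05% higher and 16% lower) and 12 without mouse 3 (3.37% and 18.1%), all of these members higher in POL5551. Without 2-day mouse 1, 2 or 3 it was 0, 7 and 1, where 0.0241%, 2.31% and 0.536% of all genes were called higher and 0.283%, 13.2% and 4.94% lower. Without sham 1, which enters only through the shared estimate of spread, it was 60, 59 of them higher, where 16.7% of all genes were called higher and 35.9% lower. The median difference stayed between 1.03 and 1.23 when these arrays were left out. With each array scaled to its median the count was 38, all higher, where 12.5% of all genes were called higher and 13.1% lower. With quantile normalization it was 13, 12 of them higher (all genes 5.48% and 12.3%), and with the off-tissue covariate 0, as over all genes (0% higher and 0% lower), with a member median of -0.25.

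Marker lists also moved between POL5551 and 2-day G-CSF. Summed levels that did not overlap were those of 8 stem cell markers (34.4 to 36.9 in POL5551, 22.6 to 29.9 after 2 days), 5 megakaryocyte markers (12.0 to 13.8 and 7.30 to 9.69), 7 B cell markers (8.18 to 11.2 and 6.65 to 7.70), 5 T and NK cell markers (6.50 to 10.1 and 5.43 to 5.46) and 5 endothelial markers (2.15 to 2.72 and 1.79 to 2.08). Sums of 5 markers that the sort should leave out were lower in POL5551, at 111 to 116, against 125 to 196 after 2 days. Itgam alone made nearly all of that sum. Its log2 levels were 6.78, 6.78 and 6.84 in POL5551 and 7.36, 6.94 and 7.6 after 2 days. Neutrophil, macrophage, erythroid and stromal sums overlapped. The part of these signals in the difference was not tested.

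**Figure D3:**
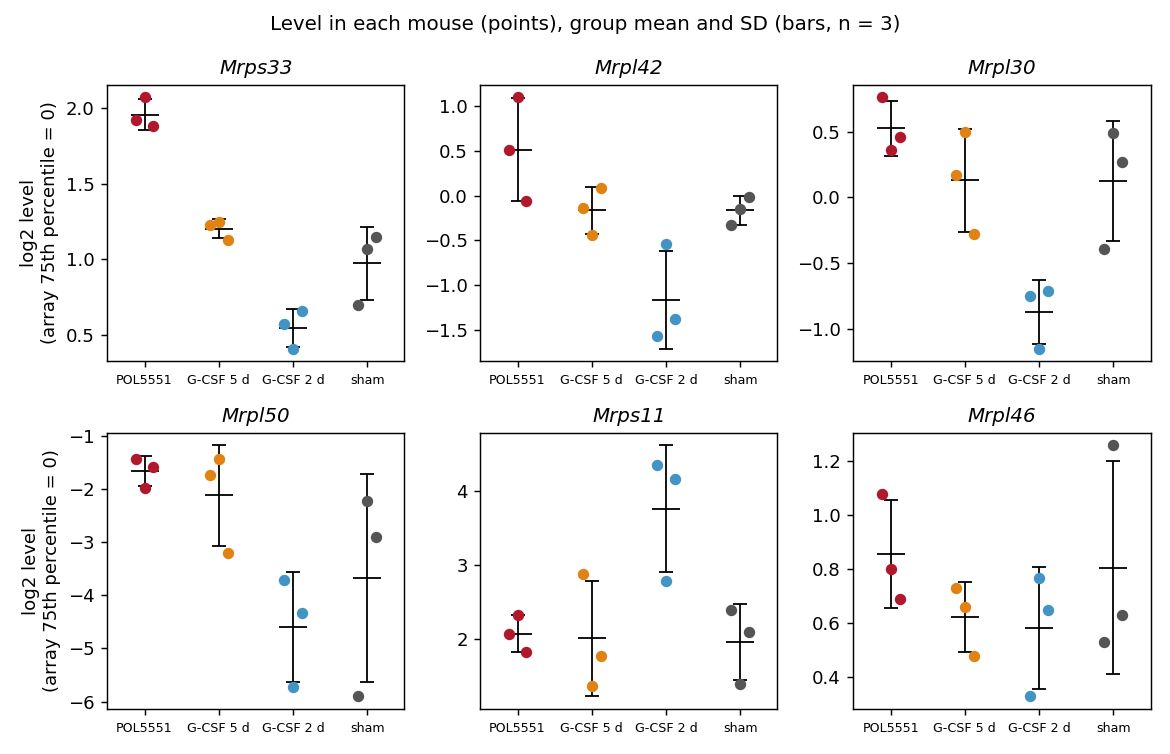
Log2 level of 6 genes in each mouse (points) with the group mean and SD (bars, n = 3) in POL5551, 5-day G-CSF, 2-day G-CSF and sham. Mrps33, Mrpl42 and Mrpl30 show all 3 POL5551 points above all 3 2-day points, Mrps11 is highest after 2 days of G-CSF, and the groups overlap in its neighbour Mrpl46.

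Mrps11, a small subunit protein with a bacterial counterpart, was the 1 member called lower in POL5551 than after 2 days of G-CSF. Its level was 4.35, 2.78 and 4.16 after 2 days of G-CSF, against 2.40, 1.40 and 2.10 in sham, a difference of 1.80 (SE 0.50, limma adjusted p = 0.384) with no overlap. Against the same 2-day values, POL5551 had 2.07, 2.33 and 1.83, and Mrps11 fell by 1.69 in POL5551 relative to 2-day G-CSF (SE 0.50, adjusted p = 0.0319). After 5 days its values were 2.88, 1.37 and 1.78, 1 of them above the lowest 2-day array, a difference from 2 days of -1.75 (adjusted p = 0.25). The high level was thus seen on the 2-day slide, in 2 mice more than in the third. The array has 1 probe for it, the one printed above. Of the 5 other members with a negative difference between POL5551 and 2-day G-CSF, Mrps9 had -1.03 (SE 0.43, limma adjusted p = 0.0815) with every POL5551 array below every 2-day array, and Mrps7, Mrpl35, Mrpl4 and Mrps31 lay between -0.32 and -0.06. Groups did not overlap downwards in 2 members, where 43.9% of all genes did so.

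Mrps11 and Mrpl46 are neighbours that start 41 bases apart on chromosome 7 and are read away from each other (RefSeq, GRCm38.p6), the only such close pair among the members. Mrpl46 had 1.08, 0.80 and 0.69 in POL5551, 0.73, 0.66 and 0.48 after 5 days, 0.33, 0.77 and 0.65 after 2 days, and 0.53, 1.26 and 0.63 in sham. No pair of groups was separated, and its difference between 2-day G-CSF and sham was -0.22. The difference between the neighbours was not itself tested.

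The G-CSF groups asked how these genes stood early and late in mobilization. After 2 days, 31 of 77 members had a positive difference from sham and the median was -0.13, against 0.10 over all genes, of which 57% were positive. No member was called (smallest adjusted p 0.384, limma), with 1 higher and 3 lower at an unadjusted p under 0.05, where the background was 5.94% and 3.18%; 0.0301% of all genes were called higher and 0.00301% lower. Every 2-day array lay above every sham array in 2 members (background 6.79%) and below in 4 (5.33%). The 3 that were lower at the unadjusted level were Mrpl30 with a difference of -0.99, Mrps36 with -0.74 and Mrpl42, none overlapping with sham. Mrpl42 (adjusted p = 0.478, limma) had the 2-day values given above, against -0.33, -0.15 and -0.01 in sham. Without sham 1 the median was -0.59 and 9 members were positive, while without sham 2 or sham 3 it turned positive, to 0.04 and 0.17.

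After 5 days of G-CSF, 70 members had a positive difference from sham, with a median of 0.45 against -0.13 over all genes, of which 42.5% were positive. Again 0 were called (smallest adjusted p 0.399), with 2 higher and 0 lower at an unadjusted p under 0.05 (background 3.23% and 7.90%; 0.0482% of all genes were called higher and 0.0181% lower). Groups did not overlap in 2 members that were higher (background 4.41%) and 0 that were lower (8.16%). The 2 at the unadjusted level were Mrpl41, with -0.45, -0.13 and -0.29 after 5 days and -2.73, -2.14 and -0.25 in sham, a difference of 1.41, and Mrpl12, with a difference of 0.92. Mrpl41 overlapped with sham through sham 3. Without sham 1 the median was -0.02 and 37 members were positive, so the count of positive differences rested on that array. With slide as a fixed term the median was 1.27, but 5-day mice 1 and 3 were alone on their slides. That value rests on 5-day mouse 2, tied to sham only through POL5551 mouse 3 on the same slide. It is no comparison of 3 against 3 mice.

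Between 5 and 2 days of G-CSF, a comparison that holds no sham array, 70 members were positive with a median of 0.57, against -0.27 over all genes, of which 39% were positive. No gene of the array was called (0%), and the smallest adjusted p of a member was 0.25 (limma). At an unadjusted p under 0.05, 8 members were higher and 1 lower (background 3.46% and 12.7%), and 30 had every 5-day array above every 2-day array (background 11.7%). Mrpl47, the counterpart of a bacterial protein near the tunnel exit, had 0.10, 0.09 and -0.07 after 5 days and -1.41, -1.05 and -0.92 after 2 days, a difference of 1.17 (SE 0.38, adjusted p = 0.251). Mrpl30 had 0.17, 0.50 and -0.28 after 5 days and the 2-day values given above, a difference of 1.01 (SE 0.34, adjusted p = 0.251). In 28 members all 6 arrays of the POL5551 and 5-day groups lay above all 3 arrays of the 2-day group, a count not made for all genes. The off-tissue medians separated the same groups, and with that covariate the median was -0.27.

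Between POL5551 and 5-day G-CSF the median difference was 0.52 with 71 members positive, against -0.28 over all genes, and 33 members had every POL5551 array above every 5-day array (background 10.3%). None was called (smallest adjusted p 0.392, limma), nor was any gene called higher (0%), while 0.0603% of all genes were called lower, and 2 members, Mrps33 and Mrps25, were higher at an unadjusted p under 0.05 (background 2.22%) and 0 lower (9.42%). Mrps33 had the POL5551 values given above, against 1.23, 1.25 and 1.13 after 5 days, a difference of 0.75 (SE 0.26). Mrps25 had 2.78, 3.67 and 2.59 in POL5551 and 1.95, 2.25 and 1.80 after 5 days, a difference of 1.02 (SE 0.38). On the slide that held 1 mouse of each group, the median difference was 0.06 with 44 of 77 positive, close to the -0.03 over all genes. On its representing probe, the order of Mrps33 by mean was POL5551, 5-day G-CSF, sham and 2-day G-CSF. The means were 1.96 ± 0.10, 1.20 ± 0.07, 0.97 ± 0.24 and 0.54 ± 0.13 (SD, n = 3 each). The 5-day and sham ranges overlapped, and each other neighbour was apart. Over the 3 probes of Mrps33 the difference between 5-day G-CSF and sham ran from -0.69 to 0.65, so this order did not hold on every probe. Between 2-day G-CSF and sham it ran from -1.57 to 0.0071.

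The F test over the 4 groups called 0 members (smallest adjusted p 0.0565, limma), with 28 at an unadjusted p under 0.05, where 1.35% of all genes were called and 34% reached the unadjusted level. The 6 smallest p-values were those of Mrps33, Mrpl42, Mrpl49, Mrpl30, Mrps11 and Mrpl28. Without sham 1, 23 were called (29.9%), where 23.1% of all genes were.

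**Figure D4:**
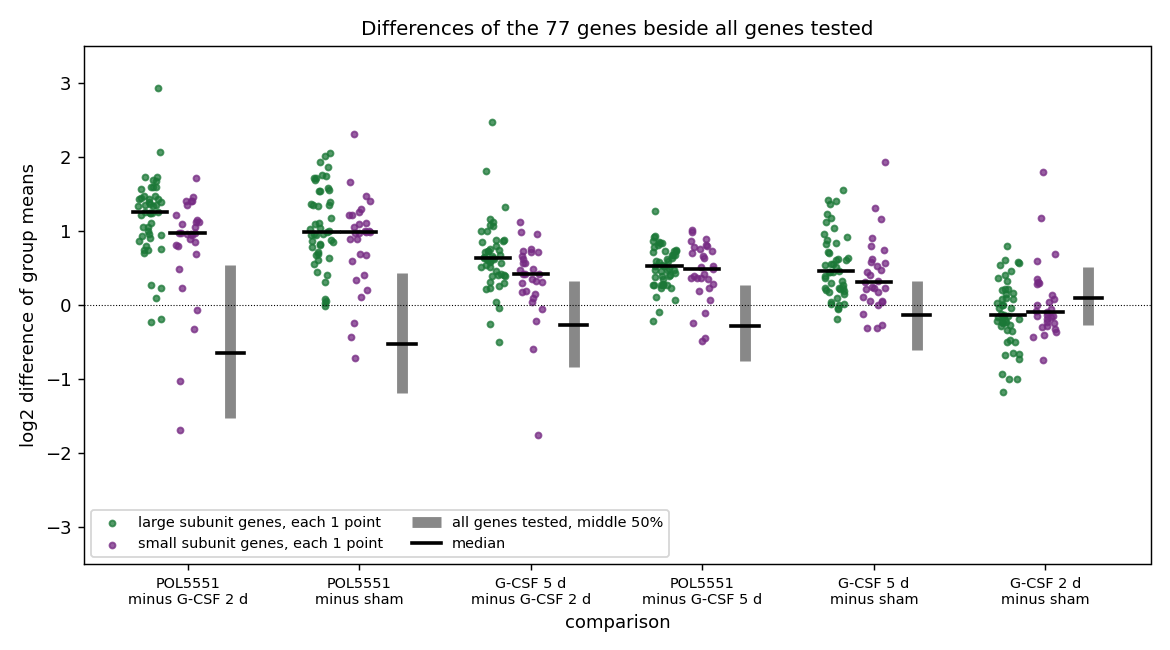
Log2 difference of group means (y axis) in 6 comparisons (x axis) for each large and small subunit gene (points, medians as bars) beside the middle 50% and median of all genes tested (grey). The member median was 1.13 for POL5551 minus 2-day G-CSF and 0.98 for POL5551 minus sham, where that of all genes was -0.65 and -0.52.

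Members with well known parts in translation were also read one by one. Of the stalk and its base, Mrpl10, Mrpl11 and Mrpl12 had differences between POL5551 and sham of 1.86, 1.72 and 1.35, and between POL5551 and 2-day G-CSF of 1.06, 1.25 and 0.74, none called. Mrps12, at the decoding site, had 1.40 and 0.80, and Mrps5 and Mrps2, other core proteins of the small subunit, 0.89 and 0.34 against sham. Of the proteins in which variants cause human mitochondrial disease, Mrps16 had 1.01, Mrps34 0.89 and Mrps7 -0.24. The 3 counterparts of the bacterial small subunit protein of that number, Mrps18a, Mrps18b and Mrps18c, had 0.99, 0.41 and 1.09 between POL5551 and sham; only Mrps18c was called in any comparison. Mrps15, Mrpl37 and Mrps30 had 0.99, 0.72 and 0.69. Mrps36, the dehydrogenase subunit, had 0.21.

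Of the members, 4 had a negative difference between POL5551 and sham: Mrps9 (-0.71), Mrps31 (-0.42), Mrps7 (-0.24) and Mrpl27 (-0.02), of which Mrps7 and Mrpl27 had 0.17 and 0.38 with each array scaled to its median. For each of them a further probe went the other way. The dimmer Mrps9 probe printed above had a difference of 0.80 where the brighter one had -0.71, and it was well above background on 6 arrays. The probe that represents Mrps31 was designed on a GenBank record, and the other one, on RefSeq, had -0.47, -0.56 and -0.12 in POL5551 and -3.00, -1.12 and -1.15 in sham, a difference of 1.37. The second Mrps7 probe had 1.41, 0.17 and 0.00 in POL5551 and -2.21, -1.79 and -0.38 in sham, a difference of 1.99. With the mean over the probes of a gene, all of these 4 had positive differences.

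Of 30 genes with more than 1 probe, 13 had probes of opposite sign between POL5551 and sham, and in 8 of them the probes lay at least 0.5 from 0 on both sides: Mrpl9, Mrpl13, Mrpl23, Mrpl47, Mrpl48, Mrps9, Mrps14 and Mrps18b. Mrpl23 shows the size of it. Its representing probe, on RefSeq, had 3.34, 3.70 and 2.99 in POL5551 and 1.40, 2.99 and 3.15 in sham, a difference of 0.83, while a probe on an Ensembl transcript, well above background on all 12 arrays, had -3.95, -3.80 and -2.35 in POL5551 and -0.94, -1.50 and -1.69 in sham, a difference of -1.99. Signs differed by the record the probe was designed on: of 100 probes on RefSeq records 96 were positive, with a median of 0.97, of 14 on Ensembl transcripts 8, with a median of 0.35, and of 5 on GenBank records 0, with a median of -0.42. Of the 15 probes that cross an intron, 14 were positive, with a median of 0.80. These probes share genes and arrays, so the counts are a description. Against 2-day G-CSF, Mrps33 was positive in all of its 3 probes, with 1.41, 1.73 and 1.76. Between POL5551 and sham its probes ran from 0.19 to 1.74.

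**Figure D5:**
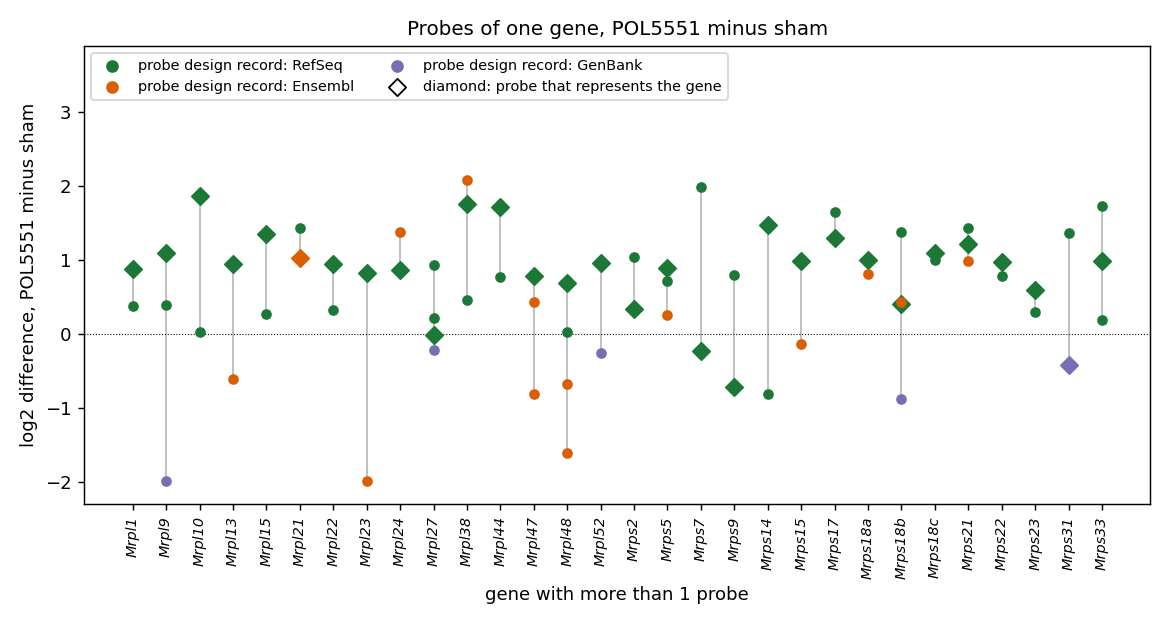
Log2 difference between POL5551 and sham (y axis) for every probe of the 30 genes with more than 1 probe (x axis), coloured by the kind of record the probe was designed on, with a diamond for the probe that represents the gene. The 5 GenBank probes all lie below 0, between -1.99 and -0.21, and most RefSeq probes lie above it.

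Other genes of the pathway were read from lists of known function, and their calls against 2-day G-CSF stand beside the 5.87% of all genes called higher and 24.7% called lower. Of 7 further mitochondrial ribosomal proteins with other names on the array, 5 were positive between POL5551 and sham (median 0.63, 0 called). Mrpl58 is a RefSeq symbol that the array design did not use for the gene, so the choice by name left it out. This release factor built into the large subunit had 1.51 and Dap3, a small subunit protein, 0.87. Against 2-day G-CSF 1 of the 7 rose, Oxa1l, which inserts new proteins into the inner membrane (0.94, adjusted p = 0.0438), and 0 fell. Of 26 assembly factors 3 rose against 2-day G-CSF and 0 fell: Tfb1m, the methyltransferase of the small subunit RNA (2.35, adjusted p = 0.0205), Malsu1, which binds the large subunit during its assembly (1.35), and Mterf3 (1.33). Of 12 translation factors tested 1 rose and 1 fell, Mtif3, an initiation factor, with a difference of 1.26 (adjusted p = 0.0254), and Gfm2, which recycles the ribosome, with a difference of -2.09 (adjusted p = 0.013). None of 17 mitochondrial tRNA synthetases was called, with a median difference of 0.60.

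Of 11 genes that copy or express the mitochondrial genome, 3 rose against 2-day G-CSF and 1 fell: Lrpprc and Slirp, partners that stabilize mitochondrial messages (1.38 and 1.44), Tfb2m, a factor of the mitochondrial RNA polymerase (1.34), and Tefm, an elongation factor of that polymerase. None of the 3 POL5551 arrays marked Tefm as well above background, and it passed the filter through 5 others, all 3 of the 2-day group among them. Its mean level was -5.01 in POL5551 and -3.80 after 2 days, at least 2.17-fold lower in POL5551 against the lowest signal well above background there (adjusted p = 0.0437). Of 9 regulators of mitochondrial biogenesis 3 rose, Gabpa (1.26, adjusted p = 0.0249), Pprc1 (1.15) and Yy1 (1.10), and 0 fell; Nrf1 had -0.02 and Ppargc1a -0.93. Not one gene of these lists was called against sham in any treatment (limma). Against 2-day G-CSF 22 of 78 respiratory chain and ATP synthase genes rose and 0 fell, with a median of 1.03, close to the 1.13 of the members, and 1 of 50 cytosolic ribosomal protein genes rose, with a median of 0.36. Against sham the medians were 0.85 and 0.17, and without sham 1 they were 0.36 and -0.10, beside 0.45 for the members. The differences between these lists were not tested.

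Promoter sequence was compared last. RefSeq windows of 250 bases before the start (GRCm38.p6) were found for 68 of the 77. The NRF1 motif, GCGCA and GCGC with 1 base of any kind between them, was in 10 of the 68 (14.7%; 9 of the large and 1 of the small subunit), against 4.23% of the 27025 genes with a window. The letters CCGGAAG, core of ETS factors such as GABPA, were in 17 (25%; 7.83% of all), AAGATGGCG, bound by YY1, in 2 (2.94%; 0.711%), CACGTG in 5 (7.35%; 6.86%) and TATAAA in 5 (7.35%; 14.3%). Both strands were searched, and no motif is part of another. The windows were richer in G and C, 58.4% at the median against 52.4%, and NRF1 and ETS letters are themselves rich in both. At least 1 of the first 3 was found in 28 members (41.2%; 11.8% of all). The pattern is shown for 3 members. Mrpl9 and Mrpl3 were both called against 2-day G-CSF on their representing probes, although Mrpl9 changed sign with the mean over its probes. Mrpl17 is the member that holds both the NRF1 and the ETS letters. Capitals mark the motif letters.
Mrpl9 (chr3:94443086-94443335, plus strand): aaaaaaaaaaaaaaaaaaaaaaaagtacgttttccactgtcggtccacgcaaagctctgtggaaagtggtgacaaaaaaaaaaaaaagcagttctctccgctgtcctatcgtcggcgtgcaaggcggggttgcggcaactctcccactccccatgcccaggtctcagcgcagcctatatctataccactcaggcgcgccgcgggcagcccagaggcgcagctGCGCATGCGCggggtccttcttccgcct
Mrpl3 (chr9:105053018-105053267, plus strand): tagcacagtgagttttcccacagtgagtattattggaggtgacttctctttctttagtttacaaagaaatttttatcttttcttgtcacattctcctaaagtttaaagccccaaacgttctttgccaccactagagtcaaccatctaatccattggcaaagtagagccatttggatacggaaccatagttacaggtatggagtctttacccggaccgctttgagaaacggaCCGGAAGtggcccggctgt
Mrpl17 (chr7:105811088-105811337, minus strand): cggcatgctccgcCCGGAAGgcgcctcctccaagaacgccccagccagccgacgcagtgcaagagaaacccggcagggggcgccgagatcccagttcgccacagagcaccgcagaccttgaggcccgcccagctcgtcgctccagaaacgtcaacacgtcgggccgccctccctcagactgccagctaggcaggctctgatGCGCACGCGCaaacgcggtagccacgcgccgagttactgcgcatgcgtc
Mrpl17 had a difference of 0.79 against 2-day G-CSF and was not called, and Mrps33, with the smallest p, held none of the 5 motifs in its window.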

How the data were processed

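RNA of sorted stem cells from 12 mice was labelled with Cy5 and hybridized to single-colour Agilent arrays, per the labels' protocols. The deposited scanner files hold linear spot intensity values. The submitters' processing notes name Agilent Feature Extraction 11.5.1.1. The intensity was deposited with background and spatial trends removed and no scaling between arrays, per the file headers. The authors' deposited table of processed intensity has a median of 1080 in every column and was used as an alternative; 5 of its columns match the scanner file of another mouse of the same group, and mouse numbers here are those of the scanner files. How that table was made is not given in the sources used here.

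Outlier spots, 60 to 267 per array, were dropped, none of them a member's. Repeated spots were averaged, and log2 of the processed intensity minus the log2 of the array's 75th percentile over probes was analysed. Each gene was represented by its brightest tested probe. Differences between groups were fitted in limma 3.58.1 under R 4.3.3 (two-sided, 12 arrays, 8 residual degrees of freedom), adjusted by Benjamini and Hochberg's method; an exact test of 3 against 3 mice cannot go below 0.1. The procedure was tested on simulated data. The number of arrays limits the precision. Of 119 probes, 99 matched a RefSeq accession and no symbol differed. Symbols in the files are those of the array design. Members, gene lists, tests and alternatives were chosen with earlier results of these data known. Genes named are up to 6 members per direction with the smallest p in each comparison with sham and 3 in the others, all called members, members whose probes disagree, 20 fixed by role, and called genes of the lists, with some named after their values were seen (Mrpl34, Mrpl17, Mrpl18, Dap3, Mrpl58, Nrf1, Ppargc1a).

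Alternatives were other scalings and background correction, other filters and probe rules, the authors' table, slide as a block, the off-tissue covariate, the mouse number as a block, and leaving out each array. Deviations from the group means were correlated between arrays of the same mouse number, a number taken from the labels. In 2-day G-CSF and sham all 3 same-numbered pairs were above 0.1 (0.154 to 0.248, against -0.176 to 0.00739 for other numbers), so the numbers were taken to pair these groups; in no other pair of groups did all 3 pass.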

Additional observations from a re-analysis of the deposited data

How the results depend on the processing

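No member was called in the comparisons of 2-day or 5-day G-CSF with sham, of 5-day with 2-day G-CSF, or of POL5551 with 5-day G-CSF under any alternative run. For POL5551 against sham the count was 4 when only probes well above background on all 12 arrays were tested (Mrpl12, Mrpl49, Mrpl55 and Mrps33), where fewer genes were tested and 0.847% of all genes were called higher and 7.26% lower, and 0 to 15 leaving out each array in turn. The median difference was -0.22 with the off-tissue covariate and 0.45 to 1.24 leaving out arrays. For POL5551 against 2-day G-CSF the count of 25 was 13 with quantile normalization, 38 with median scaling, 14 with the authors' table, 0 with the off-tissue covariate (smallest adjusted p 0.489) and 0 to 60 leaving out arrays; the median was 1.57 with median scaling, -0.25 with the covariate and 1.03 to 1.23 leaving out arrays. The share of all genes called with the authors' values was 5.65% higher and 12.9% lower. The F test called 6 with the stricter filter (8.57%; 14% of all genes) and 0 to 23 leaving out arrays. The median between 5-day and 2-day G-CSF was 0.78 with median scaling, -0.27 with the covariate and 0.41 to 0.77 leaving out arrays. Between POL5551 and 5-day G-CSF it was 0.77 with median scaling, 0.056 with slide as a fixed term, -0.029 with the covariate and 0.36 to 0.65 leaving out arrays. Between 5-day G-CSF and sham it was 1.27 with slide as a fixed term and -0.02 to 0.65 leaving out arrays, and between 2-day G-CSF and sham -0.59 to 0.17. Median scaling moved the median of all genes to -0.12 for POL5551 minus sham and -0.20 for POL5551 minus 2-day G-CSF. The cause of these changes was not tested. Slide as a fixed term gives no value for the 2-day group, whose slide held no other group. For the 5-day group its values rest on mouse 2, because 5-day mice 1 and 3 were alone on their slides. With the mouse number as a replicate block over all arrays the count of POL5551 against 2-day G-CSF was 20, where 5.04% of all genes were called higher and 20.4% lower, and every other count of calls was 0. With the block for the 2-day and sham arrays alone, a fit chosen after seeing the data, 0 members were called between these groups (smallest adjusted p 0.170; 0.0211% of all genes higher and 0.00301% lower) and the median was -0.13; the pairing changed no call of a member there.

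Of 1715 alternative values for the named members, 1441 kept direction and side of the threshold, 218 lost the threshold, 10 gained it and 46 changed sign. With the mean over a gene's probes the differences were 0.046 for Mrps9, 0.47 for Mrps31, 0.88 for Mrps7 and 0.23 for Mrpl27 between POL5551 and sham, -0.27 for Mrpl9, 0.43 for Mrps7 and 0.56 for Mrps9 between POL5551 and 2-day G-CSF, 0.39 for Mrpl27, 0.23 for Mrps9 and 0.23 for Mrps31 between POL5551 and 5-day G-CSF, 0.33 for Mrps9 between 5-day and 2-day G-CSF, 0.46 for Mrps18b and 0.87 for Mrps7 between 5-day G-CSF and sham, and -0.29 for Mrps22 between 2-day G-CSF and sham. With median scaling they were 0.17 for Mrps7 and 0.38 for Mrpl27 between POL5551 and sham, 0.13 for Mrps7 against 2-day and 0.031 for Mrpl27 against 5-day G-CSF, and 0.030 for Mrps7 and 0.11 for Mrpl4 between 5-day G-CSF and sham. With the covariate they were 0.24 for Mrps7 and 0.45 for Mrpl27 between POL5551 and sham, 0.21 for Mrps7, -0.18 for Mrpl21, -0.26 for Mrpl39, -0.080 for Mrpl40, -0.30 for Mrpl53 and -0.20 for Mrps14 between POL5551 and 2-day G-CSF, 0.019 for Mrpl27 between POL5551 and 5-day G-CSF, and 0.11 for Mrps7 and 0.064 for Mrps9 between 5-day G-CSF and sham. With slide as a fixed term they were 0.15 for Mrps36, 0.84 for Mrps18b, 0.12 for Mrpl46 and 0.25 for Mrpl4 between 5-day G-CSF and sham, and 0.17 for Mrps9 between POL5551 and 5-day G-CSF. Leaving out arrays gave -0.12 to 0.16 for Mrpl27 between POL5551 and sham, -0.20 to 1.10 for Mrps12 and -0.72 to 2.15 for Mrps27 between 2-day G-CSF and sham, and -0.58 to 0.0021 for Mrps18b, -0.32 to 0.046 for Mrpl46, -0.28 to 0.040 for Mrps7 and -0.22 to 0.11 for Mrpl4 between 5-day G-CSF and sham.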
